A study of Mus musculus with 41 samples.

Results

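The regions described here are the 500 widest promoter domains of H3K18la, lactylation of lysine 18 of histone H3, in mouse embryonic stem cells grown in 2i medium (mESC-2i). They were chosen by their measured width in the mESC-2i H3K18la peak list, with ties taken by larger total signal. A peak counted as a promoter peak when it overlapped a window of 2000 bp on either side of any annotated transcription start site (TSS) on chromosomes 1 to 19. Of the 19489 peaks of the list on these chromosomes, 9788 were promoter peaks, and the 500 domains made up 5.11% of them. Width, signal and everything else read from this list served the choice or came from the same list, so they are given as description only.

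The cells were of the E14 line, a single embryonic stem cell line. In 2i-lif medium they received inhibitors of MEK and GSK3 together with leukaemia inhibitory factor (LIF), and the mESC-ser cells of the same line were grown in serum with LIF. All other material carries the strain label C57BL/6, and every sample carries the treatment label control. It comprised gastrocnemius muscle (GAS), primary myoblasts (MB) and the myotubes made from them (MT), bone marrow-derived macrophages (BMDM), macrophages that entered muscle after ischemia (PIM) and white adipocytes (ADIPO). Muscle and macrophages came from young adult females, and PIM were sorted by surface markers from calf muscle after hind-limb ischemia. Adipocyte nuclei were taken on streptavidin beads from AdipoCre-NuTRAP mice, in which an adipocyte Cre switches on a nuclear tag. Stem cells were profiled as whole cells and the rest as nuclei. The assay was CUT&Tag, in which an antibody guides a transposase to cut DNA next to a histone mark. The 41 samples formed 24 combinations of 8 cell types and 4 marks, and each combination had 1 peak list, called on pooled replicates. The mESC-2i H3K18la list pooled 2 samples, and the lists of BMDM and MB rest on 1 sample each. No spread between replicates can be read from such a list, so no test was run across samples and the intervals below cover counting error only. mESC-2i cells had no H3K27ac list here, and H3K27ac is given from mESC-ser, where it was a single sample.

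Lysine lactylation takes its acyl group from a metabolic product of glycolysis and, like acetylation, is found on histones of open chromatin. H3K4me3 marks the starts of active and poised genes, H3K27ac marks active promoters and enhancers, and H3K27me3 is the mark laid down by Polycomb repressive complexes. In naive embryonic stem cells a small circuit of transcription factors, among them OCT4 (Pou5f1), NANOG, ESRRB and KLF2, is bound at clusters of enhancers near genes of stem cell identity. 2i medium supports that circuit by blocking the ERK pathway and by keeping beta-catenin active.

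The domains were between 21240 and 81392 bp wide, with a median of 27668 bp, against a median of 4905 bp for the other 9288 promoter peaks. They were 2.57% of the peaks in the list but held 12.3% of its bases (15.5 of 125.9 Mb) and 17.7% of its signal, the fragment coverage summed over bases. Their median signal per base was 44.7, against 24.5 in the other promoter peaks. Their highest coverage ranged from 59 to 1133 with a median of 377, against a median of 115 in the other promoter peaks. At the limit of the choice, the domains of Wdfy3 (21270 bp) and Lama1 (21240 bp) were the last inside, and the peaks of Sdc4 (21222 bp) and of Hyal1 with Hyal3, Ifrd2 and Naa80 (21203 bp) were just outside. The limit therefore cut through a continuous range of widths.

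**Figure D1:**
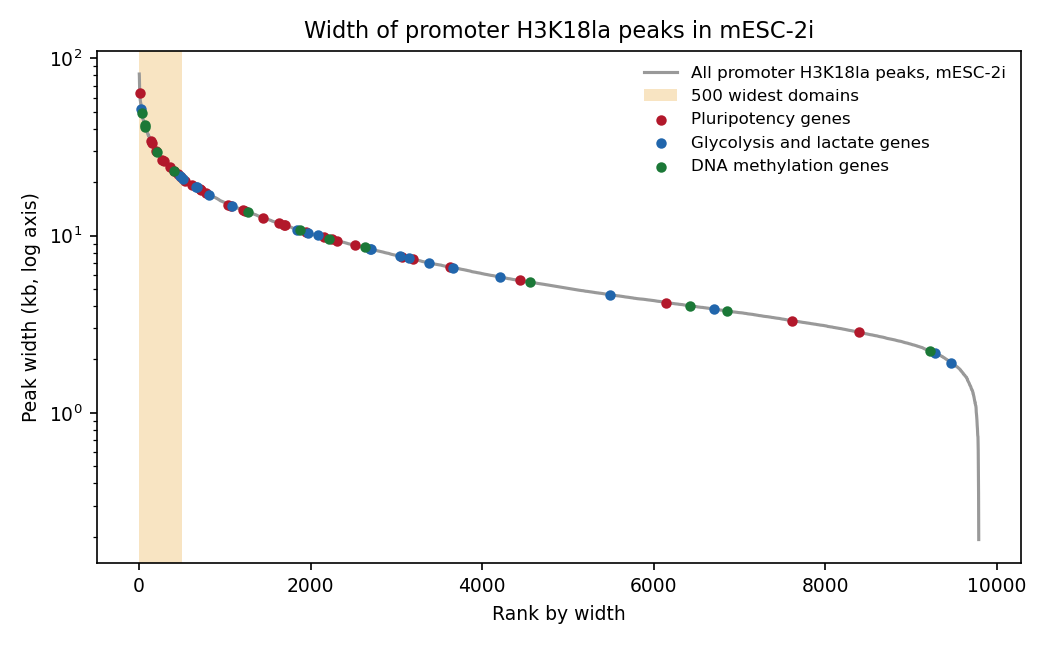
Width of the 9788 promoter H3K18la peaks of mESC-2i (kb, log axis) against their rank by width. The shaded band holds the 500 widest, from 21240 to 81392 bp, and coloured points mark peaks with a TSS of pluripotency, glycolysis and lactate, or DNA methylation genes. Points of all 3 groups lie inside and outside the band.

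The sequences of 3 promoters are shown because they lie in the widest domains with a gene start inside them in the RefSeq promoter set used here. That set (build GRCm38.p6, the same assembly as mm10) had no entry for Scd2, the gene of the domain ranked 2. Each line gives the bases from 250 to 51 before the start, read 5′ to 3′ on the strand of the gene, and capitals mark matches to the GC box GGGCGG or its reverse complement. The stretches lie at chr6:125494811-125495010, chr12:86884865-86885064 and chr5:116422915-116423114, all on the minus strand.
Cd9: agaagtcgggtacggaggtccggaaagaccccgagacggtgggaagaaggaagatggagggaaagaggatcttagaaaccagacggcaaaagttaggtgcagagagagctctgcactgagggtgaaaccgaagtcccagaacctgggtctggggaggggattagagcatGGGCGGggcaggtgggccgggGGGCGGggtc
Irf2bpl: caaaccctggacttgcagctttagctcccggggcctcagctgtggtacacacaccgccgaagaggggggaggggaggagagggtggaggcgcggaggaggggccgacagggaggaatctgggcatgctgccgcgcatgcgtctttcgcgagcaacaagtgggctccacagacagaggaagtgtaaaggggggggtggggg
Hspb8: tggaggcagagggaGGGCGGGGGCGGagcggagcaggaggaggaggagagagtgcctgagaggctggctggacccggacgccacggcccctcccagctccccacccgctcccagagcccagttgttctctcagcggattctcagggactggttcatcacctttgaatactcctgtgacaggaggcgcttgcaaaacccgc
The GC content of these stretches was 60.5%, 65.5% and 65.5%. Of all 31396 RefSeq promoter windows on chromosomes 1 to 19, 24.9% held a GC box in the same 200 bases. All 3 stretches were wholly covered by H3K4me3 in mESC-2i and by H3K18la in mESC-ser, and none by H3K27me3 in mESC-2i. H3K27ac in mESC-ser covered the stretches of Cd9 and Irf2bpl but not that of Hspb8.

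The domains also held 41 annotated miRNA genes, a count given without a share over all miRNA genes and so only as description. Of the 41, 31 matched RefSeq mature sequences by symbol. These gave 48 mature sequences with 48 different seeds (bases 2 to 8), so no seed was shared. The arms matched for 4 of these genes are printed, those of the long-known miRNAs miR-135b, miR-152, miR-191 and miR-425, with the seed in capitals. Mir191 and Mir425 lie in the same domain, with the starts of Dalrd3, Impdh2, Ndufaf3, P4htm and Wdr6, Mir152 lies in the domain of Copz2 and Nfe2l1, and Mir135b in that of Lemd1.
miR-191-5p: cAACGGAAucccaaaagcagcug
miR-191-3p: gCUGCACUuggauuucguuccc
miR-425-5p: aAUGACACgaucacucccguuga
miR-425-3p: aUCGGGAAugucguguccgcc
miR-152-5p: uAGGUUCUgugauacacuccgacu
miR-152-3p: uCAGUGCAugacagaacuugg
miR-135b-3p: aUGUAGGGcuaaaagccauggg
A fixed list of stem cell and muscle miRNA genes and their hosts had 36 annotated members, of which 0 had a start in a domain and 14 had a start in a narrower promoter peak. With 14 marked members and 8.32% of all marked coding genes in domains, no difference can be read from that count.

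The widest domain, 81392 bp at chr6:125418670-125500061, lay over Cd9, which codes for a tetraspanin of the cell surface. Next came Scd2 (79558 bp), a fatty acid desaturase, Irf2bpl (74090 bp), a nuclear regulator, and a domain shared by the small heat shock gene Hspb8 and the neural splicing factor Srrm4 (69445 bp). Mkrn1 (66110 bp), Foxn3 (63948 bp), Esrrb (63810 bp at chr12:86460306-86524115), Rnf125 (62366 bp), the group of Adrb3, Eif4ebp1 and Got1l1 (61196 bp) and Tns3 (59258 bp) completed the 10 widest. Esrrb, a nuclear receptor of the naive pluripotency circuit, was the only one of these 10 with a member of the pluripotency list. The Esrrb domain held 2 of the 5 annotated Esrrb starts and not the one farthest upstream, and both RefSeq starts lay outside it. Likewise 2 of 14 starts of Foxn3 and 1 of 4 starts of Tns3 were inside, and Tns3 had another domain of 24304 bp. All 3 annotated starts of Cd9 and the single start of Irf2bpl were inside. Of the genes named here, the start farthest upstream was outside the domain for Srrm4, Foxn3, Esrrb and Tns3.

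These 10 domains differed in how far other cell types shared them. H3K18la in mESC-ser covered 95.9% of the Mkrn1 domain, 91.2% of that of Irf2bpl, 83.6% of that of Esrrb, 75.5% of that of Cd9, 44.9% of that of Scd2 and 42.5% of that of Rnf125. At Irf2bpl, H3K18la also covered 83.5% in GAS and 63.1% in MT. At Foxn3 it covered 89.9% in GAS, above the 63.6% in mESC-ser. At the Adrb3 domain, which holds the gene of the beta-3 adrenergic receptor of adipocytes, it covered 56.7% in ADIPO and at most 22.8% in every other differentiated cell type. At Esrrb it covered 14.7% in GAS and no base in the other 5 differentiated cell types, and H3K27me3 covered 33.2% in MT. At Cd9 it covered 52.9% in PIM and 49.8% in MT, at Scd2 59.8% in MT and at Tns3 74.5% in PIM and 58.0% in MT.

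In total 1042 genes, 627 of them protein-coding, had a TSS inside a domain. A single coding gene started in 280 domains, 2 or more in 131 (26.2%, against 11.3% of the other promoter peaks) and none in 89 (17.8%, against 28% of the other promoter peaks). The largest number was 8, and 13 domains held no TSS and only reached a promoter window. Although chosen at promoters, the domains lay mostly away from them. Of their bases, 30.6% were within 2000 bp of a TSS, against 59.0% in the other promoter peaks, and the point of highest signal was a median of 4130.5 bp from the nearest TSS, against 646 bp. That point, the summit, lay within 2000 bp of a TSS in 162 domains (32.4%), against 73.4% of the other promoter peaks. A wide region reaches farther from any start by construction, so these differences partly restate width. Annotated genes held 61.1% of domain bases and 69.1% of the bases of the other promoter peaks.

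CpG islands, the GC-rich stretches found at most housekeeping promoters, were counted in the domains and in the other promoter peaks. They were called from the genome sequence by length (200 bp or more), GC content (50% or more) and the ratio of observed to expected CpG (0.6 or more). At least 1 island was present in 491 domains (98.2%, against 83.1% of the other promoter peaks), and the median domain held 5 islands, against 1. Per 10 kb, however, the median was 1.80 in the domains and 2.76 in the other promoter peaks, a difference of -0.957 (-1.11 to -0.864 over the 95% order-statistic interval of the domains' median). Islands took up 8.79% of domain bases and 16.9% of the bases of the other promoter peaks, and the median GC content was 48.3% against 49.4%. All these regions overlap promoters, where islands are common, so a lower density in wider regions partly restates width. No comparison matched on distance was made.

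Motifs of 6 kinds were searched on both strands, with overlapping matches counted. The ESRRB motif TCAAGGTCA occurred 0.490 times per 10 kb of the domains and 0.403 times in the other promoter peaks, and the KLF motif GGGTGTGG 1.45 and 1.33 times. The octamer ATTTGCAT, bound by OCT4, occurred 0.484 and 0.518 times, the E-box CACGTG 1.73 and 1.88 times, the STAT motif TTCCNGGAA 0.342 and 0.352 times, and the GC box GGGCGG 4.25 and 6.86 times. Around the summit, in windows of 150 bp on either side, the KLF motif was found in 99 domains (19.8%) and in 9.80% of the other promoter peaks. The ESRRB motif was found there in 19 domains (3.80%, against 1.87%) and the GC box in 122 (24.4%, against 35.8%). Within the same distance the octamer was found in 2.60% and 2.12%, the E-box in 8.20% and 9.05% and the STAT motif in 1.20% and 1.58%. The summit windows of the domains lay farther from promoters, as given above, and the part of that in these shares was not tested. A match describes the letters and not a bound factor.

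The comparison with mESC-ser asked how much of the wide H3K18la marking was shared between the growth conditions of the same line. A region is called in another list when that list covers at least 50% of its bases. H3K18la in mESC-ser called 395 domains (79.0%, 95% Wilson interval 75.2% to 82.3%) and 57.8% of all 9788 promoter peaks. Set against the other 9288, the share was 22.4 percentage points higher (95% interval 18.5 to 25.9). The median domain was 74.0% covered, with quartiles of 54.3% and 88.8%. Read at the summit, a point that does not grow with width, the shares were 94.2% of domains and 68.0% of all promoter peaks. The summits of domains were also higher, with a median maximum signal of 377 against 115 in the other promoter peaks. The part of height in these shares was not tested. No mESC-ser H3K18la peak touched 8 domains, against 27.9% of all promoter peaks.

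The domains were chosen as the widest peaks of the mESC-2i list, so narrower or more broken peaks over them in another list follow in part from the choice. The counts here are therefore a description. The paper observed that SEACR, the peak caller, often joined small neighbouring peaks, so a domain may hold several of them and need not be continuous. In mESC-ser, 399 of the 500 domains were crossed by 2 or more separate H3K18la peaks, up to 8, and 93 by a single peak. The widest serum peak over a domain had a median width of 13165.5 bp, and it reached the width of the narrowest domain in 115 cases. Peaks of the serum list were narrower altogether, its 500 widest promoter peaks starting at 12997 bp with a median of 17209.5 bp. Of the domains, 46.0% overlapped one of those 500, and 48.6% of those 500 overlapped a domain. SEACR calls peaks from stretches of coverage, so width may also depend on sequencing depth. The mESC-2i list covered 125.9 Mb and the mESC-ser list 81.3 Mb, and the part of depth in the widths was not tested.

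The 8 domains without serum H3K18la were those of Kiss1 with Gm28040, Gm47144, Stk24, Gm44827, Gm15957, AC141882.1 with AC141882.2, 2510009E07Rik and Sorcs2, between 30843 and 21316 bp wide. Coding genes start in the domains of Kiss1, Stk24, 2510009E07Rik and Sorcs2, and only non-coding genes in the others. In mESC-ser, H3K27me3 covered 70.7% of the 2510009E07Rik domain and at most 12.8% of any of the other seven. The Sorcs2 domain, absent in serum, was 84.8% covered by H3K18la in MT and 52.4% in GAS. At Kiss1, the gene of kisspeptin, no differentiated cell type had H3K18la and H3K27me3 covered 41.0% in GAS and 39.0% in MT.

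The domains covered below 50% by H3K18la in every other cell type were led in width by Rnf125 (62366 bp), 1110002O04Rik (48134 bp), Eif2b5 (45389 bp), Ak4 (44298 bp), Gm45288 (43855 bp) and Gm25628 (41539 bp). Serum H3K18la still covered 42.5% at Rnf125, 47.5% at Ak4, an adenylate kinase of mitochondria, and 37.1% at Gm45288. It covered 22.7% at Eif2b5, a subunit of a translation initiation factor, 17.5% at 1110002O04Rik and 4.52% at Gm25628. Those called in mESC-ser and in no differentiated cell type were led by the domains of Hspb8 with Srrm4, Mkrn1, Esrrb, Dock6 with Kank2 and Spc24, Ssc4d with Ywhag and Zp3, and Fbxo36 with Trip12. At the Fbxo36 and Trip12 domain (56807 bp), serum H3K18la covered 93.2% and the highest share in a differentiated cell type was 12.2%, in MT.

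In the differentiated cell types the domains were seldom covered along their whole width. H3K18la called 100 of the 500 domains in GAS (24.0% of all promoter peaks), 15.6% in MT (24.9%), 7.20% in ADIPO (19.5%), 6.20% in PIM (15.9%), 1.80% in MB (5.80%) and 0.400% in BMDM (3.08%). The lists differed in size, from 22.3 Mb in BMDM, 40.0 Mb in MB, 68.0 Mb in PIM and 75.6 Mb in ADIPO to 121.9 Mb in GAS and 135.3 Mb in MT, and the order of the shares largely followed size. In all 6 lists the share of called domains was below that of all promoter peaks, yet the share of bases covered was close. In GAS 26.5% of domain bases and 24.3% of those of the other promoter peaks were covered, in MT 23.9% and 23.3%, in MB 7.33% and 6.90%, in BMDM 4.99% and 5.37%, in PIM 14.7% and 17.2% and in ADIPO 16.9% and 20.2%.

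No differentiated H3K18la list called 352 domains (70.4%, against 56.0% of all promoter peaks). By the loosest reading, an overlap of 1 bp, only 52 domains (10.4%) were free of H3K18la in all 6, against 26.4% of all promoter peaks, and 118 (23.6%) were touched in all 6, against 6.45%. A wider region is touched more easily, and the 2 readings point in opposite directions. Summits give a value between them, with 230 domains (46.0%) whose summit lay in none of the 6 lists, against 42.0% of the other promoter peaks.

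A single domain was called in all 7 other H3K18la lists and so in all 6 differentiated ones, against 0.633% of all promoter peaks for the latter. It was the domain of Malat1, an abundant nuclear non-coding RNA, 24401 bp wide at chr19:5801614-5826014. H3K18la covered 98.8% of it in GAS, 95.1% in mESC-ser, 92.5% in MT, 75.8% in PIM, 73.5% in ADIPO, 60.8% in MB and 53.8% in BMDM. The domain of the scaffold gene Ahnak with Eef1g (34829 bp) was called in mESC-ser and in 5 differentiated lists, all but BMDM, where 20.6% was covered. The Sfi1 domain on chromosome 11 (35875 bp) was also called in 5, all but MB. All 4 marks were listed together there. In mESC-2i, H3K4me3 covered 81.3% and H3K27me3 78.4%, and in mESC-ser H3K27ac covered 89.7%. H3K4me3 in PIM covered 98.4% of it and H3K27me3 85.3%. Every list covered at least 50% of this domain, whatever the mark, except H3K18la in MB (7.04%) and H3K27me3 in BMDM (no base). The paper filtered out peaks in blacklisted regions, and whether this domain lies in one was not tested.

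**Figure D2:**
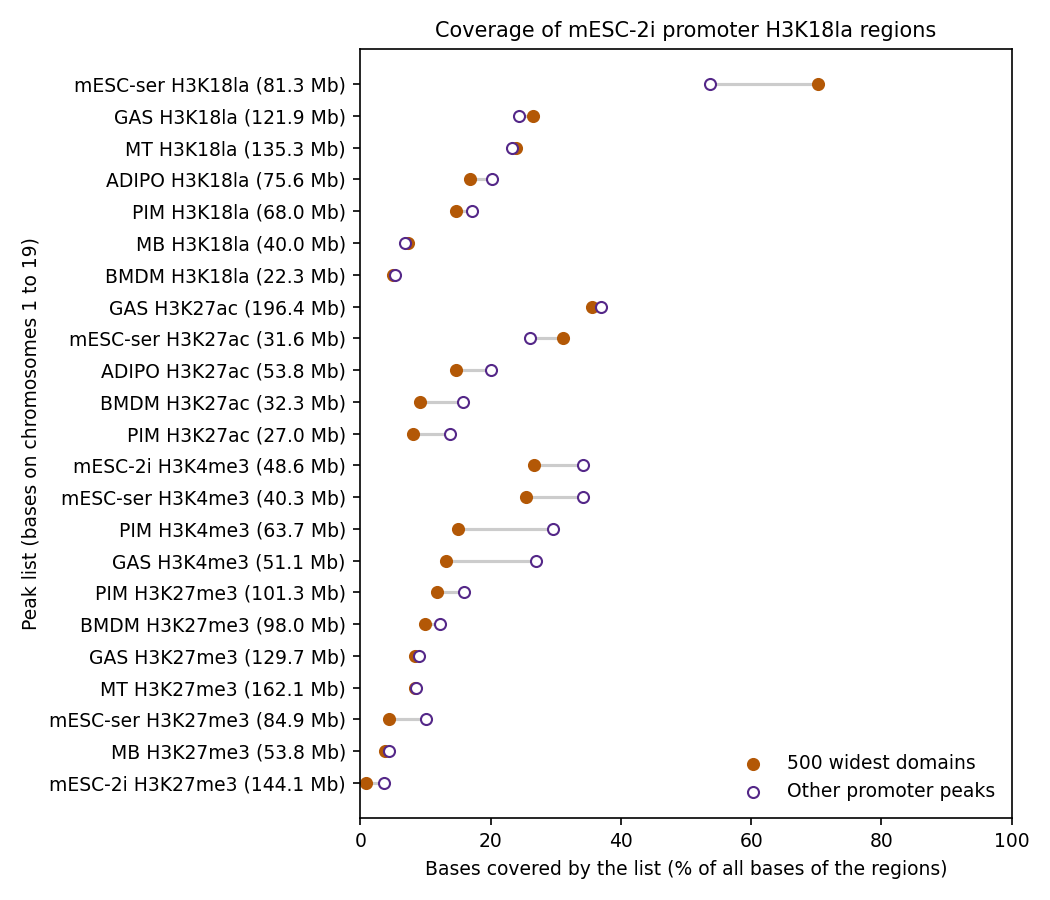
Share of all bases of the 500 domains (filled points) and of the other 9288 promoter H3K18la peaks of mESC-2i (open points) covered by each of the other 23 peak lists, with the size of each list in Mb. mESC-ser H3K18la covered 70.2% of domain bases and 53.7% of the others, the highest coverage of any list, and mESC-2i H3K27me3 covered 0.860% and 3.56%.

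H3K4me3 covered a minor part of most domains, chosen as they were for long H3K18la. In mESC-2i, H3K4me3 called 42 domains (8.40%, against 38.4% of all promoter peaks), 31.7 percentage points below the other promoter peaks (95% interval, 28.7 to 34.0 below). The median domain was 25.1% covered by it, with quartiles of 16.4% and 36.6%. Some H3K4me3 was found in 94.0% of domains and 69.5% of the other promoter peaks, a reading that grows with width, and the summit was covered in 60.6%, against 58.1% of all promoter peaks. Of the 627 coding genes with a start in a domain, 526 (83.9%) had a covered start, against 86.9% of those in the other promoter peaks. In mESC-ser, H3K4me3 called 13.0% of domains, against 40.7% of all promoter peaks.

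The distance from the start shows this directly. Among domain bases within 1 kb of a TSS, 55.8% were covered by H3K4me3 of mESC-2i, against 59.8% in the other promoter peaks. From 1 to 2 kb the shares were 35.2% and 30.8%, from 2 to 5 kb 19.3% and 13.6%, and from 10 to 20 kb 15.5% and 8.77%. At equal distance up to 20 kb the domains had about as much H3K4me3 as narrower peaks near the start and more of it farther out. H3K18la of mESC-ser changed little with distance, with 79.3% of domain bases covered within 1 kb and 67.5% at 10 to 20 kb, against 61.0% and 46.1% in the other promoter peaks. Beyond 20 kb it covered 65.1% of domain bases.

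The domains with least H3K4me3 had none, among them, in order of width, 1110002O04Rik, Gm25628, Grb10, Gm37736 and Sgms1. At Grb10, an imprinted adaptor of insulin signalling, H3K18la covered 77.3% in MT and 27.1% in mESC-ser. At Sgms1, a sphingomyelin synthase, it covered 91.1% in GAS and 45.3% in PIM. The Gm37736 domain was 95.8% covered by H3K18la in mESC-ser.

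H3K27ac, read in mESC-ser, was highest near starts and covered more of the domains than of narrower peaks at each distance up to 20 kb. It called 91 domains (18.2%, against 24.8% of all promoter peaks), 6.95 percentage points below the other promoter peaks (95% interval, 3.23 to 10.2 below). For the 250 widest the difference was -2.05, with an interval of -6.89 to 3.61 that includes 0, and with protein-coding promoters only it was -13.6. In bases the order was the other way, with 31.1% of domain bases covered against 26.1%, and the summit was covered in 70.8% of domains against 52.9% of all promoter peaks. Within 1 kb of a TSS 50% of domain bases were covered, against 43.1% in the other promoter peaks. From 1 to 2 kb the shares were 32.3% and 19.5%. From 2 to 5 kb the shares were 26.8% and 14.2%, and from 10 to 20 kb 24.2% and 11.2%. The sign of the difference therefore depended on whether the whole width or a point was read. For H3K4me3 in mESC-2i the difference at the summit was 2.62 percentage points, with an interval of -1.84 to 6.93 that includes 0.

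**Figure D3:**
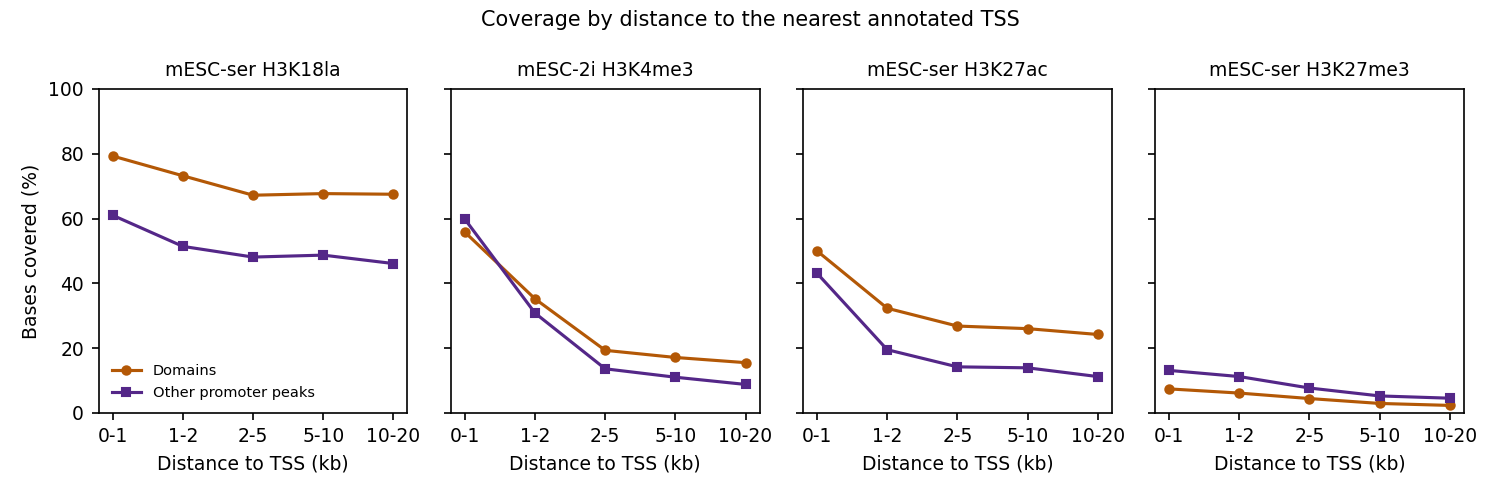
Share of bases covered (%) by 4 lists, by distance to the nearest annotated TSS (kb), in the 500 domains (circles) and in the other promoter H3K18la peaks (squares). H3K4me3 of mESC-2i drops from 55.8% of domain bases within 1 kb to 15.5% at 10 to 20 kb, while H3K18la of mESC-ser lies between 67.2% and 79.3% in the plotted bins, which end at 20 kb.

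The Polycomb mark was nearly absent from the domains in 2i cells. The mESC-2i H3K27me3 list was the largest of the stem cell lists, at 144.1 Mb, and it called 2 domains (0.400%, against 3.97% of all promoter peaks), 3.77 percentage points below the other promoter peaks (95% interval, 2.65 to 4.28 below). Both are named above or next, Cbx8 with 87.2% and Sfi1 with 78.4% of bases covered. The Sfi1 domain was covered by most lists whatever the mark, as given above. Ggt1 with Lrrc75b (48.9%), Dynlt1c (42.9%) and Gsx2 (37.1%) followed. Cbx8, itself a Polycomb protein gene, was wholly covered by H3K27me3 in mESC-ser and at least 64.8% covered in each differentiated list. At Gsx2, a homeobox gene of the developing brain, H3K27me3 covered 91.1% in mESC-ser and 90.9% to 100% in GAS, MB, MT, BMDM and PIM. In mESC-ser H3K27me3 called 2.60% of domains, against 10.8% of all promoter peaks.

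In at least 1 of the 5 differentiated lists, H3K27me3 called 76 domains (15.2%, against 21.7% of all promoter peaks). By list it called 42 domains in BMDM, 45 in PIM, 35 in MT, 27 in GAS and 18 in MB. Against the other promoter peaks the shares differed by -3.74 percentage points in BMDM (95% interval -5.98 to -0.910), -7.43 in PIM (-9.77 to -4.50) and -3.16 in GAS (-4.92 to -0.753). In MT (-1.17, -3.18 to 1.46) and MB (-0.707, -2.09 to 1.35) the interval included 0. The genes in these domains include several of the pluripotency list, described next.

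Of the 35 annotated genes of the pluripotency list, all had a start in a promoter H3K18la peak, as had 7537 of all 20780 coding genes, and 10 (28.6%) had one in a domain. Of those 7537 coding genes, 8.32% had one in a domain. The list was chosen with results of these data known, and no test was made of it. The 10 were Pou5f1, Nanog, Klf2, Esrrb, Dppa5a, Fgf4, Trim71, Spp1, Tdh and Nodal. Their domains ran from 21338 bp at Klf2 to 63810 bp at Esrrb, with a median of 26492.5 bp, near the 27668 bp of all domains. H3K18la in mESC-ser called all 10 (79.0% of all domains), with a median of 89.6% of bases covered, against 74.0% over all domains. 9 of the 10 were called in no differentiated H3K18la list, against 70.4% of all domains. The exception was Klf2, with 85.4% covered in GAS and at most 29.4% in the other differentiated cell types.

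Pou5f1, the gene of OCT4, lay in a domain of 23043 bp at chr17:35495958-35519000, shared with Tcf19 and Cchcr1. H3K18la of mESC-ser covered 98.9% of it and H3K27ac of mESC-ser 77.6%, H3K4me3 of mESC-2i covered 55.3%, and H3K18la of the 6 differentiated cell types covered no base. H3K27me3 covered 78.6% in PIM and 68.8% in BMDM, 37.2% in GAS and 29.9% in MT.

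Nanog, a homeobox factor of the same circuit, had a wider domain, 34129 bp at chr6:122682593-122716721. There H3K18la of mESC-ser covered 89.9%, H3K4me3 of mESC-2i 38.5% and H3K27ac of mESC-ser 33.3%. H3K18la covered 17.1% in ADIPO, 13.6% in MT and 4.25% in MB. H3K27me3 covered 93.0% in BMDM and 72.5% in PIM, 19.6% in GAS, 5.74% in MB and no base in MT.

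Fgf4, a growth factor that stem cells secrete, and Tdh, the threonine dehydrogenase on which mouse stem cells depend, carried no H3K18la in the 6 differentiated cell types. Both domains were fully covered by H3K27me3 in BMDM, and in MT 93.6% and 100% were covered. In GAS the shares were 71.2% at Fgf4 and 77.1% at Tdh. At Nodal, a TGF-beta ligand, H3K27me3 covered 69.7% in BMDM and 61.9% in PIM. At Trim71, the stem cell RNA-binding protein, it covered 54.0% in GAS. In all, H3K27me3 called 6 of these 10 domains in at least 1 differentiated list, against 15.2% of all domains. In mESC-2i and mESC-ser it covered no base of any of the 10. Of all domains it touched 3.80% in mESC-2i and 19.6% in mESC-ser, so most domains were free of it. Dppa5a (26810 bp), Spp1 (22206 bp), Klf2 and Esrrb stayed below 50% in each H3K27me3 list.

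The other 25 pluripotency genes had narrower peaks. Tdgf1, the NODAL coreceptor, missed the limit with 20385 bp, Gbx2 had 19324 bp and Sall1 18047 bp. Zfp42 had 6627 bp with a maximum signal of 548, above the 322 of the Nanog domain, so a narrow peak could be as high as a wide one. Klf4 had 2847 bp and Lin28a 3311 bp. The Sox2 start lay in a peak of 11407 bp, and 513 bp away began a domain of 23346 bp over Sox2ot, the transcript that overlaps Sox2. H3K18la of mESC-ser covered 90.6% of that domain and H3K27me3 covered all of it in GAS and 99.7% in MT.

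Genes of DNA methylation and imprint maintenance were the other list with a large share in domains, 5 of 13 (38.5%, against the 8.32% of all marked coding genes). This list too was chosen with results of these data known, and no test was made of it. Tet2 (41748 bp) and Tet1 (29597 bp) code for enzymes that oxidise 5-methylcytosine. Zfp57 (48828 bp) and Trim28 (41054 bp) code for the zinc finger protein and corepressor that guard imprints, and Uhrf1 (23081 bp) for the factor that brings the maintenance methyltransferase to replicated DNA. H3K18la of mESC-ser covered between 64.2% at Uhrf1 and 89.8% at Tet2. No differentiated H3K18la list called any of the 5, as was so for 70.4% of all domains, and H3K27me3 covered 68.9% of the Zfp57 domain in BMDM and 78.5% in PIM. The methyltransferase genes had narrow peaks, 3754 bp at Dnmt1, 8566 bp at Dnmt3a and 4014 bp at Dnmt3b, and Dnmt3l had 13617 bp. Tet3, of the same list, also had a narrow peak, of 5459 bp, so the TET genes were not all wide.

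Of the 28 genes of the LIF, WNT and ERK pathways, 4 had a start in a domain, which is 15.4% of those with a start in a promoter peak, against 8.32% of all marked coding genes. Socs3 (34807 bp) and Pim1 (27720 bp) are targets of LIF and STAT3, Notum (26161 bp) is a target and inhibitor of WNT, and Etv5 (34170 bp) an ETS factor of the ERK pathway. Socs3 and Pim1 were shared with differentiated cells, H3K18la covering 94.9% at Socs3 in MT and 78.9% in GAS, and 56.9% at Pim1 in PIM and 54.6% in MT. Etv5 was not, with at most 4.97% covered in any of the 6. At Etv5 1 of 5 annotated starts was inside the domain. The feedback genes Dusp6 (7592 bp) and Spry4 (6698 bp) and the WNT target Axin2 (14903 bp) had narrower peaks.

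Of 32 annotated genes of a list of Polycomb and other chromatin regulators, 5 had a start in a domain, 16.1% of the marked ones against 8.32% of all marked coding genes. The list does not hold every gene of its kind, and Aebp2 (36800 bp), Cbx8 (22427 bp) and Pcgf2 (22132 bp), chosen after their values were seen, are Polycomb genes outside it with a domain. The 5 were Kat6b (42672 bp), Suz12 (31277 bp), Mtf2 (30742 bp), Kdm6b (27782 bp) and Jarid2 (26273 bp). Suz12, Mtf2 and Jarid2 belong to the complex that writes H3K27me3, and Kdm6b removes it. Serum H3K18la called all 5, as it did 79.0% of all domains. H3K4me3 of mESC-ser covered 98.4% of the Kdm6b domain and between 30.3% and 32.4% of the other four.

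Of the 24 genes of a list for glycolysis and lactate transport, the pathway that is the source of the acyl group, 2 had a start in a domain. Ldhd, a lactate dehydrogenase outside the list that was picked after its values were seen, shared a domain of 22964 bp with Znrf1. Hk2 (51997 bp), a hexokinase, was one of them, although 1 of its 4 annotated starts lay inside and the RefSeq start did not. Aldoa, an aldolase, shared a domain of 21577 bp with Tbx6, Ppp4c and Fam57b. Tbx6 was the germ layer gene in a domain, 1 of 9 marked in that list (11.1%, against 8.32% of all marked coding genes). Eno1 (20821 bp), Hk1 (18861 bp), Pfkp (18674 bp) and Gapdh (16966 bp) fell short of the limit, and Ldha (10335 bp), lactate dehydrogenase A, ranked well below. In any peak, 21 of the 24 had a start, so 9.52% of the marked genes of the list were in domains, near the 8.32% of all marked coding genes.

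Among 25 cell cycle genes 3 had a start in a domain (13.6% of the marked ones, against 8.32% of all marked coding genes), namely Cdkn1a (55472 bp), Ccnd3 (29080 bp) and Cdk2 (22258 bp). Of 27 housekeeping genes 4 did (16.7% of the marked ones), namely Hsp90ab1 (24427 bp), Actb (24125 bp), Eif4a1 (22999 bp) and Eif4a2 (22034 bp). These 4 had a median of 98.8% of bases covered by H3K18la in mESC-ser and 64.8% by H3K27ac, against medians of 74.0% and 28.9% over all domains. Of 17 annotated formative and primed state genes 10 were marked and 1 of these (10.0%, near the share of all marked coding genes) had a start in a domain, Krt8 (23489 bp). It was below 50% in mESC-ser H3K18la (41.2%) while H3K27me3 of mESC-ser covered 51.9%. Of 18 germline genes 6 were marked, all in narrower peaks, too few to read a difference from the share of all marked coding genes.

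**Figure D4:**
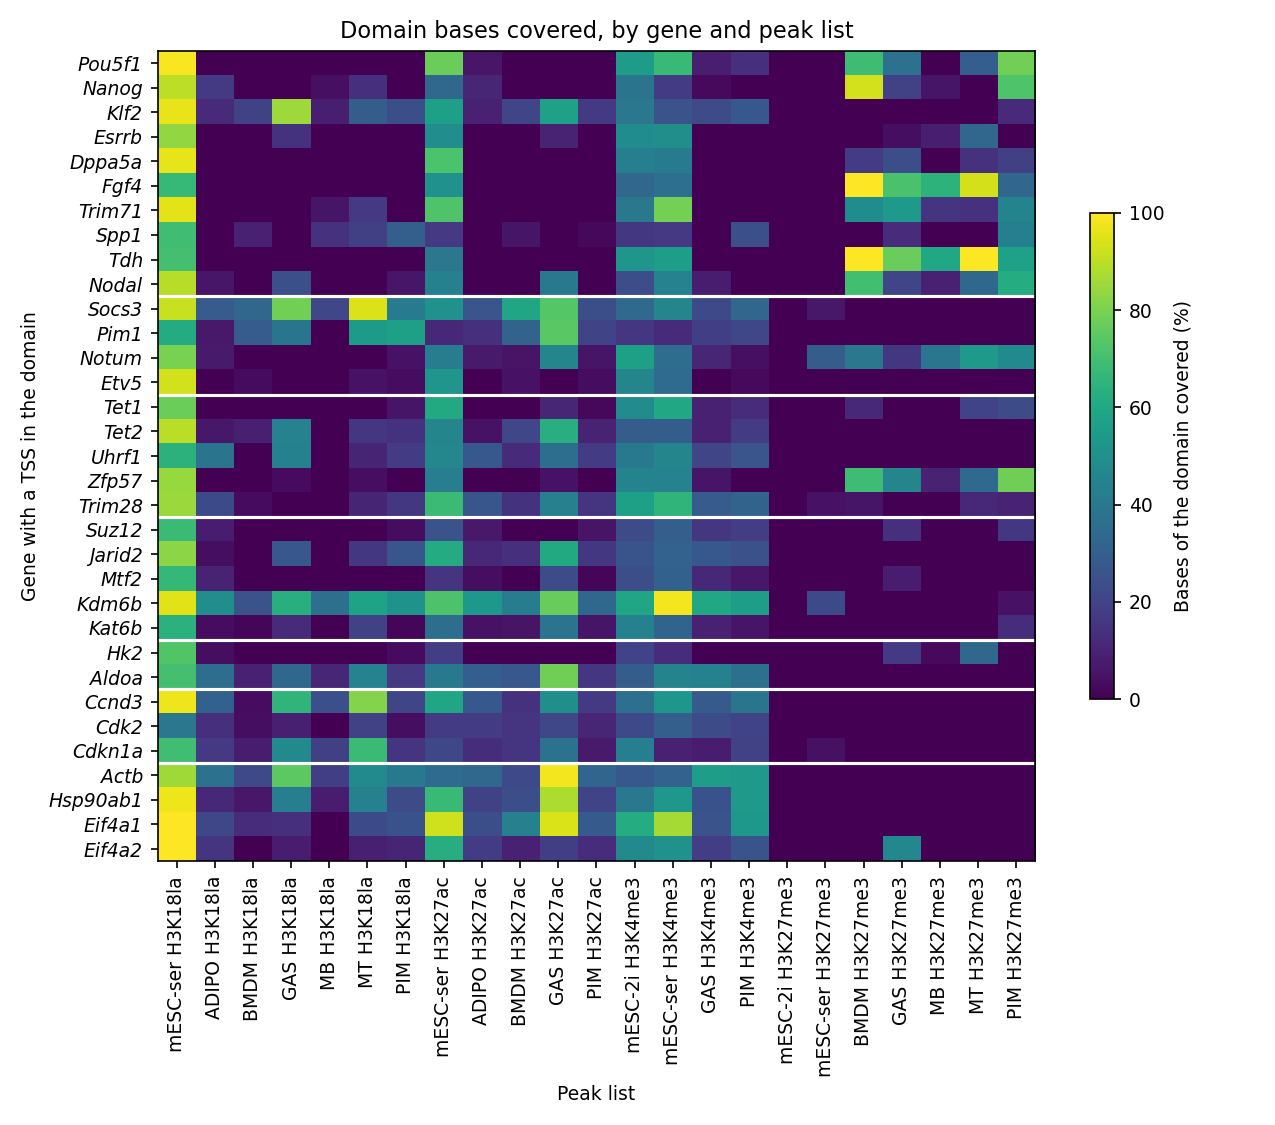
Share of domain bases (%) covered by each of the other 23 lists for genes with a start in a domain, grouped from top to bottom as pluripotency, LIF, WNT and ERK, DNA methylation, Polycomb and chromatin, glycolysis, cell cycle and housekeeping genes. The mESC-ser H3K18la column ranges from 39.8% at Cdk2 to 100% at Eif4a1 and Eif4a2, and H3K27me3 of mESC-2i is 0 throughout. That H3K27me3 list touched 3.80% of all domains.

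The stem cell label was checked against defining markers. Of 8 stem cell markers 4 (Pou5f1, Nanog, Esrrb and Dppa5a) had a start in a domain and the other 4 (Sox2, Klf4, Zfp42 and Tfcp2l1) in narrower promoter peaks. Of the 8 muscle and 8 adipocyte markers of the lists 0 had a start in any promoter peak, where 7537 of all 20780 coding genes had one. Other genes known from these tissues did lie in domains, among them, chosen after their values were seen, Mylpf (41484 bp), Mymx (30922 bp), Smyd1 (26768 bp), Mb (26508 bp) and Cidea (23713 bp). The fibroblast list had 1 of 4 in a narrower peak. Cd68 was the only one of 8 macrophage markers in a peak, in the same domain as Eif4a1, and Pecam1 (30229 bp) the only one of 4 endothelial markers, with 99.0% of this domain covered by H3K18la in mESC-ser. Another Pecam1 domain (21734 bp) was 78.5% covered in mESC-ser and fully in GAS.

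The domains were unevenly spread over the chromosomes. Chromosome 11 held 84 (16.8%), although 9.85% of promoter peaks and 5.88% of annotated genes lay there. Of its 964 promoter peaks 8.71% (95% Wilson interval 7.09% to 10.7%) were domains, against 5.11% over all chromosomes. Chromosome 17 followed with 7.37% and chromosomes 14 and 9 were lowest, with 2.97% and 3.00%. The median signal per base of all H3K18la peaks on chromosome 11 was 1.01 times that of the chromosomes other than 8 and 11 in mESC-2i and in mESC-ser. The same ratio was 1.08 for H3K4me3 and 1.10 for H3K27me3 in mESC-2i, and in mESC-ser it was 1.17 for H3K4me3, 1.05 for H3K27ac and 0.943 for H3K27me3. Their part in the share of domains on this chromosome was not tested. Neighbouring domains lay a median of 1.40 Mb apart, and 52 neighbouring pairs were within 50 kb, 19 of them within 10 kb.

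**Figure D5:**
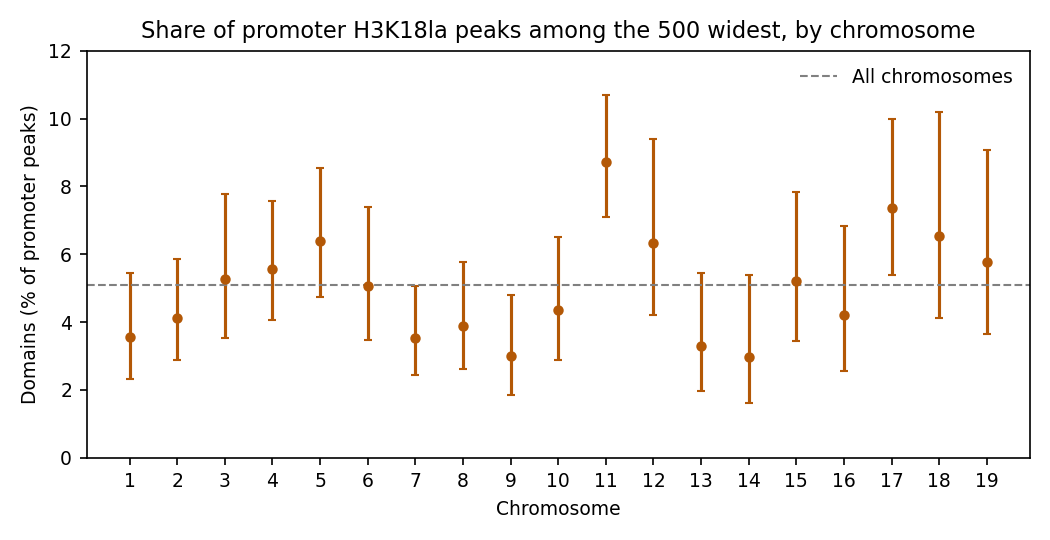
Share of the promoter H3K18la peaks of each chromosome that were among the 500 widest (%), with 95% Wilson intervals and, as a dashed line, the share over all chromosomes (5.11%). Chromosome 11 is highest, at 8.71%.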

How the data were processed

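CUT&Tag peak lists of 8 cell types and 4 histone marks were used, made from 41 samples. Per the submitters' processing notes and the methods, the authors checked reads with FastQC, trimmed them with Trim Galore 0.6.6, aligned them to mm10 with Bowtie2 2.4.4, computed coverage with bedtools 2.30 and called peaks with SEACR 1.3 on combined replicates in stringent mode, keeping the top share of peaks. The deposited columns used are signal values (total and highest fragment coverage of each peak). The authors did not scale them for depth, so signal was compared within a list only, and depth per sample, which the study gives among its quality metrics, was not used here.

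Domains were ranked by end minus start. TSSs came from GENCODE vM21 (134417 transcripts, 51229 genes), sequence from RefSeq GRCm38.p6. The covered share was the number of domain bases in a list over the domain's width, and 50% or more counted as called. Differences of shares carry 95% Newcombe intervals from Wilson limits. The coverage code was tested on simulated data against bedtools 2.31.1, with equal results in 100% of 500 regions. Named genes were the 10 widest domains, those at the limit, those called in none, in mESC-ser alone or in all other H3K18la lists, those highest in H3K27me3 or lowest in H3K4me3 of mESC-2i, and those of the gene lists; the domains without serum H3K18la and those called in 5 differentiated lists were added after their values were seen. Members and lists were chosen with earlier results of these data known. Python 3.11.15, NumPy 2.4.6, SciPy 1.17.1 and matplotlib 3.10.9 were used.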

Additional observations from a re-analysis of the deposited data

How the results depend on the processing

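Across 27 alternative readings of the 6 differences between domains and other promoter peaks, 10 stayed within the interval of the reported value, 11 moved beyond it with the same sign and 6 changed sign. The changes of sign were all at looser readings of a call. With 1 bp of overlap the differences (percentage points) were 24.5 for H3K4me3 in mESC-2i, 29.4 for H3K27ac in mESC-ser and 18.1 for H3K18la in all 6 differentiated lists, and with the summit they were 2.62 (95% interval -1.84 to 6.93, which includes 0), 18.9 and 1.88. The reported value for all 6 lists, -0.457, itself has an interval that includes 0 (-0.705 to 0.479), so its sign is not settled. The 1-bp reading grows with width by construction. For H3K18la in mESC-ser the values were 27.7 with 1 bp, 27.6 at the summit, 35.0 with the 10000 peaks of largest signal and 29.0 for the 250 widest. With protein-coding promoters only, the values were -40.6 for H3K4me3 in mESC-2i, -4.70 for H3K27me3 in mESC-2i, -13.6 for H3K27ac, -0.724 for H3K18la in all 6 lists and -1.23 CpG islands per 10 kb. H3K27me3 in mESC-2i was -2.64 with the 10000 peaks of largest signal, and H3K27ac was -2.05 for the 250 widest, where the interval (-6.89 to 3.61) includes 0 and the reported deficit is no longer separable from it. Other causes were not tested. No paired analysis was possible because replicates were pooled before peaks were called. The study gives depth per sample among its quality metrics, which were not used here.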
